A study of Mus musculus with 16 samples.

Results

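The subject here is how far the response of the liver to loss of Matr3 differed between male and female mice, measured as the effect of the deletion in females minus the effect in males. Each sex was deposited as its own table of gene counts, and genes were kept when their Ensembl identifier stood in both tables. That left 23167 of the 26296 identifiers found in either table, all 16 of 16 libraries, and between 99.96% and 99.99% of the counts in each library. Counts were high enough to test 16126 of these genes.

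The mice carried floxed Matr3 alleles, alone (floxed) or together with Albumin-Cre, which removes the gene in cells that express albumin, chiefly hepatocytes (LKO). Each of the 4 combinations of sex and genotype had 4 mice, all fed a diet with 60% of its energy as fat for 16 weeks from 7 weeks of age and fasted for 12 hours before the liver was taken. The protocol describes the LKO mice as littermates of the floxed mice, and floxed mice without Cre were the only controls, so an effect of Cre itself cannot be told apart from loss of Matr3. The sexes were deposited in separate tables, so sex and any difference in how the tables were made cannot be told apart. No label says that libraries of 1 group came from separate litters or cages, and the p-values measure the spread between these mice.

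Matrin-3 is a protein of the inner nuclear matrix that binds RNA and DNA and takes part in splicing and in the organisation of transcription. The liver is among the most sexually dimorphic organs of the mouse. The pattern of growth hormone release, pulsatile in males and near continuous in females, acts through STAT5 to set the levels of many cytochromes P450, sulfotransferases and major urinary proteins. Hepatocytes also make the acute-phase proteins of the blood in response to interleukin-6, build fatty acids from sugar under SREBP1c and ChREBP, and build cholesterol under SREBP2.

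Before the results, 4 libraries need naming. The mouse numbers of male floxed 1 and 2 in the labels lie apart from all the others. On the second principal component of the 1000 most variable genes, which held 13.5% of the variance, female floxed 4 (-9.44) and female LKO 7 (5.64) lay nearest to the other genotype, against -30.2 to -24.3 for the remaining floxed females and 18.2 to 23.9 for the remaining LKO females. The first component (64.2%) separated the sexes, and the 8 males lay between -5.97 and 10.5 on the second with the genotypes overlapping. Library totals ran from 30495505 to 36496193 counts. Levels below are scaled counts (CPM, each library's counts over its effective total), normalised by the trimmed mean of M-values (TMM), and effects are log2 fold changes of LKO over floxed mice. A gene was called when its Benjamini-Hochberg adjusted p in edgeR, over all genes tested, was under 0.05. The 10 largest differences in each direction were taken from called genes without overlap of LKO and floxed libraries in the sex with the larger effect. They are Car1, Car3, Crybb3, Cyp2a4, Cyp2a5, Cyp2a22, Fdps, Hao2, Idi1, Igdcc4, Igfbp1, Mup-ps10, Mup7, Mup11, Saa1, Saa2, Scara5, Slco1a1, Syt12 and Thrsp. Their separation in that sex was set by the choice and adds no support.

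Matr3 itself (ENSMUSG00000037236, mm10 chromosome 18, 35562138 to 35593835, plus strand) fell to a like extent in both sexes. In replicate order, here and below, floxed males (1 to 4) gave 55.9, 53.6, 61.7 and 60.0 CPM against 34.0, 36.9, 36.6 and 34.3 CPM for LKO males (5 to 8). Floxed females (1 to 4) gave 52.4, 64.0, 56.2 and 59.9 CPM against 39.8, 36.6, 37.6 and 38.3 CPM for LKO females (5 to 8). Every LKO library lay below every floxed library of its sex, at a mean of 61.3% of floxed in males and 65.5% in females (exact permutation p = 0.0286 in each sex, two-sided, the smallest that 70 regroupings allow). The effects differed by 0.10 (SE 0.10, adjusted p = 0.628, 95% interval -0.11 to 0.30). Counts were given per gene, so reads of deleted and retained exons were not separable, and in bulk tissue fewer cells of a type and less RNA per cell cannot be told apart. Dcaf8, which encodes a substrate receptor of the CUL4-DDB1 ubiquitin ligase, was a called gene with effects as alike as these: it went from 180 ± 8.46 to 78.7 ± 2.72 CPM in males and from 169 ± 8.59 to 73.3 ± 1.81 CPM in females (SD, n = 4 each). Its effects of -1.20 and -1.21 differed by -0.01 (SE 0.08, adjusted p = 0.966).

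Against that common fall of Matr3, the effects differed between the sexes for 713 of 16126 genes (4.42%). The female effect was above the male effect for 318 (1.97%) and below it for 395 (2.45%). The effect itself was called for 2854 genes in females (17.7%), of which 1387 rose (8.6%) and 1467 fell (9.1%). In males it was called for 97 genes (0.602%), of which 42 rose (0.26%) and 55 fell (0.341%). Of the 713, the effect was called in females alone for 635, in males alone for 14, in both sexes for 6 and in neither for 58. The fitted effects had opposite signs for 610 of the 713 and the same sign for 103. LKO and floxed libraries did not overlap in females for 569 and in males for 161. A called difference favours opposite signs and separated libraries, and the shares over all genes tested were not counted. For 5492 genes the 95% interval of the difference lay within 0.5 log2 units of 0 on both sides.

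**Figure D1:**
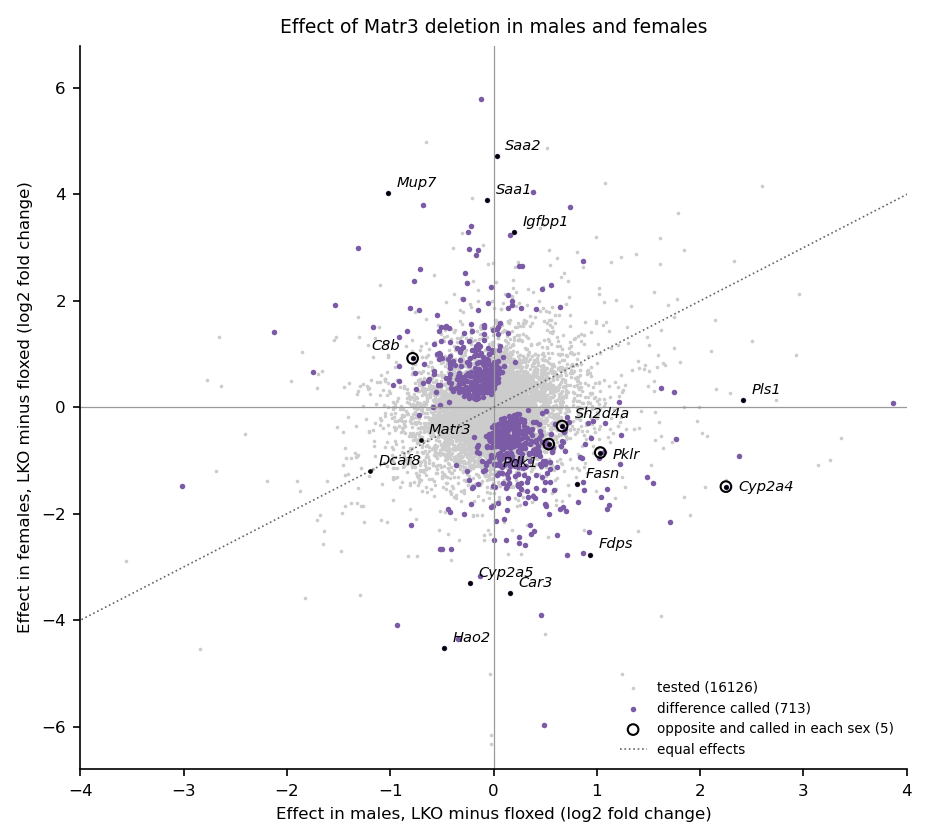
Effect of the deletion in males (horizontal axis) against that in females (vertical axis), both as log2 fold changes of LKO over floxed mice, 1 point per gene tested; purple points are the 713 genes whose effects differed, rings the 5 whose effects were opposite and called in each sex, and the dotted line marks equal effects. Most purple points spread along the vertical axis, Dcaf8 and Matr3 lie near the dotted line, and 2 genes fall outside the axes.

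The number of calls depended on single libraries. Without male LKO 5, 7 or 8 it was 459, 410 and 426, without female floxed 1 or 2 it was 407 and 464, and without female LKO 5 it was 448. Without female floxed 4 it rose to 1134 and without female LKO 7 to 1435. Without male floxed 1 and 2 together 243 genes were called, 217 of them among the 713. With library totals in place of TMM the split moved to 203 above and 698 below, and that of the female effect to 817 rises and 2248 falls. The female count fell to 1870, 1775, 1762 and 1885 without female floxed 1, floxed 2, LKO 5 and LKO 8. The male count fell to 53 without male floxed 3 and to 47, 55, 52 and 47 without male LKO 5, 6, 7 and 8. When each sex was fitted alone, so that the spread of 1 sex did not enter the other, 1426 genes were called in females and 157 in males.

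In 5 genes the deletion had opposite effects that were called in each sex, and 4 of them were raised in males and lowered in females. Pdk1 (ENSMUSG00000006494, chromosome 2, 71873224 to 71903858, plus strand) encodes pyruvate dehydrogenase kinase 1, which switches off the entry of pyruvate into the mitochondrial citric acid cycle. It measured 84.5, 80.4, 96.6 and 92.1 CPM in floxed males and 125, 130, 130 and 127 CPM in LKO males. In females it measured 116, 104, 94.9 and 96.1 CPM in floxed and 60.4, 56.4, 71.1 and 66.8 CPM in LKO livers. No LKO library overlapped a floxed library in either sex, and the male effect of 0.53 (SE 0.08, adjusted p = 0.0047) and female effect of -0.69 (SE 0.08, adjusted p = 0.00012) differed by -1.23 (SE 0.12, adjusted p = 0.000219), the smallest adjusted p for the difference of any gene.

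Pklr (ENSMUSG00000041237, chromosome 3, 89136142 to 89146784, plus strand) encodes the liver pyruvate kinase, the last enzyme of glycolysis and a classic target of ChREBP. Floxed males had 212, 247, 268 and 240 CPM and LKO males 475, 537, 494 and 473 CPM. Floxed females had 267, 188, 229 and 262 CPM, close to the floxed males, and LKO females had 97.5, 146, 176 and 105 CPM. The groups did not overlap in either sex, and the effects of 1.03 (SE 0.16) and -0.85 (SE 0.16) differed by -1.88 (SE 0.22, adjusted p = 0.000777). Floxed females and males did not differ by a called amount (-0.03), while LKO females lay 1.91 log2 units below LKO males (adjusted p = 3.5e-07).

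Sh2d4a (ENSMUSG00000053886, chromosome 8, 68276567 to 68347699, plus strand), which encodes an adaptor protein with an SH2 domain, was a low-level gene. It measured 6.93, 6.46, 5.81 and 7.06 CPM in floxed males and 10.6, 9.13, 11.2 and 10.6 CPM in LKO males, without overlap. In females it measured 10.1, 12.3, 12.9 and 11.5 CPM in floxed and 7.91, 9.05, 10.97 and 8.67 CPM in LKO livers, and these groups overlapped. Its effects of 0.66 and -0.35 differed by -1.02 (SE 0.16, adjusted p = 0.00404).

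C8b (ENSMUSG00000029656, chromosome 4, 104766317 to 104804548, plus strand), the beta chain of complement component C8 of the membrane attack complex, moved the other way. Floxed males had 65.2, 96.0, 83.7 and 88.0 CPM and LKO males 45.8, 58.0, 47.1 and 42.4 CPM. Floxed females had 89.6, 90.0, 98.1 and 93.8 CPM and LKO females 183, 215, 170 and 135 CPM. The groups did not overlap in either sex, and the effects of -0.78 (SE 0.13, adjusted p = 0.00928) and 0.92 (SE 0.13, adjusted p = 0.000444) differed by 1.70 (SE 0.19, adjusted p = 0.000777). The neighbouring C8a, the alpha chain of the same component, rose in females (1.05) with a male effect of -0.18 that was not called, and its effects differed by 1.23 (adjusted p = 0.0123).

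Cyp2a4 (ENSMUSG00000074254, chromosome 7, 26307169 to 26315088, plus strand), a steroid hydroxylase known for higher levels in female liver, was the fifth. It measured 18.3, 6.49, 10.02 and 27.3 CPM in floxed males and 89.4, 79.6, 68.2 and 58.3 CPM in LKO males, a rise of 2.25 (SE 0.45, adjusted p = 0.0301). Floxed females had 1147, 655, 349 and 1150 CPM and LKO females 470, 306, 265 and 134 CPM, a fall of 1.49 on the log2 scale (SE 0.43, adjusted p = 0.0261), with overlapping groups. The difference of -3.74 (SE 0.62, adjusted p = 0.00617) left LKO females still 1.99 log2 units above LKO males, against 5.73 between floxed females and floxed males.

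**Figure D2:**
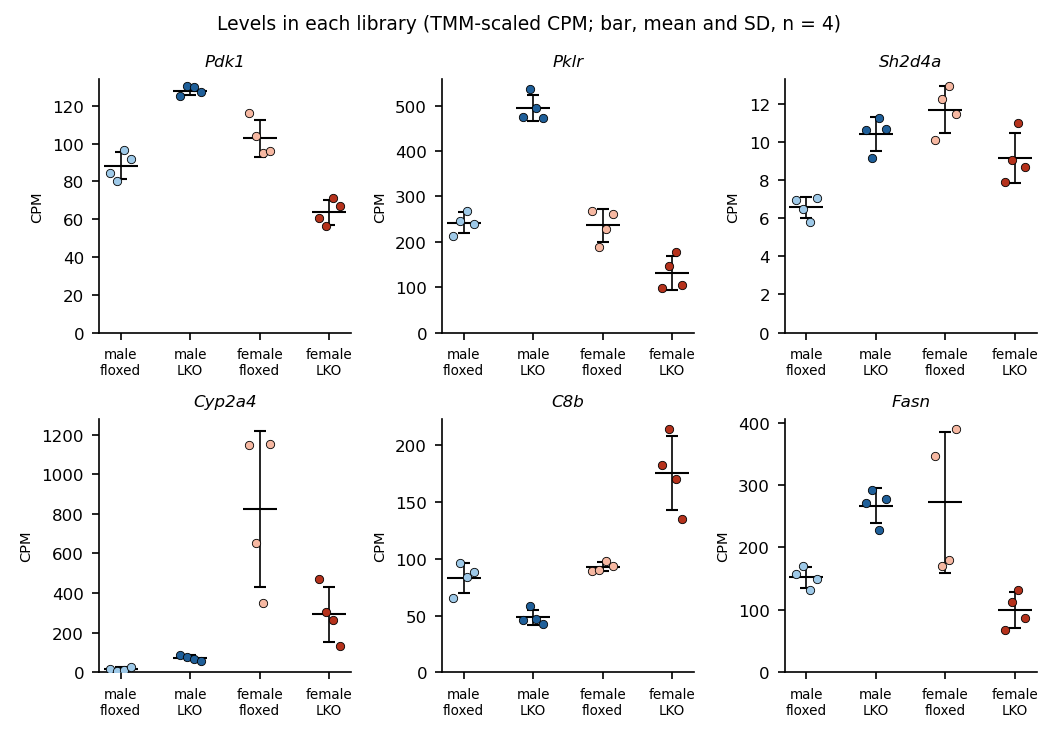
CPM (vertical axes, from 0) of the 5 genes with opposite effects called in each sex and of Fasn, in the 4 groups; points are libraries, bars the mean and SD (n = 4). Pdk1, Pklr, C8b and Fasn have no overlap of LKO and floxed libraries in either sex, and Sh2d4a and Cyp2a4 overlap in females.

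The opposite calls were not equally stable, while the difference itself was called for all 5 genes in each of the 30 alternatives run. The opposite call of Pdk1 and that of Pklr ended in 1 alternative, the omission of male floxed 1 and 2. That of C8b ended without male LKO 5 or male LKO 8. That of Sh2d4a ended with each sex fitted alone, with group weights, without male floxed 1 and 2, and without female floxed 2 or 3 or female LKO 5, 6 or 8. That of Cyp2a4 was kept in 14 of 30 fits, and the omission of any 1 of 11 libraries (male floxed 1, 2 or 3, male LKO 5 to 8, female floxed 1 or 4, female LKO 6 or 8) ended it. Without male floxed 1 and 2 the count of opposite genes was 3, and of these only C8b was among the 5. The count was 3 as well without male LKO 5, male LKO 8 or female LKO 6, and 10 without female LKO 7.

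Cyp2a4 and its paralog Cyp2a5, a coumarin hydroxylase, are shown by promoter because both transcripts fell in females and their promoters are almost the same sequence. Each line holds 250 bases before and 50 after the start, from RefSeq on GRCm38.p6, at chr7:26306942-26307241 and chr7:26835089-26835388, both on the plus strand, and capitals mark the bases that differ in the alignment of the pair.
Cyp2a4: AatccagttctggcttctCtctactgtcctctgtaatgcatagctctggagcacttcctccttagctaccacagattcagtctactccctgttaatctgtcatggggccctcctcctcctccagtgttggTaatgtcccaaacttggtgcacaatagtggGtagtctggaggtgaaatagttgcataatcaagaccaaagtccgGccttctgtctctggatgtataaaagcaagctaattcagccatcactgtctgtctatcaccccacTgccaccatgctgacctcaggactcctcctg
Cyp2a5: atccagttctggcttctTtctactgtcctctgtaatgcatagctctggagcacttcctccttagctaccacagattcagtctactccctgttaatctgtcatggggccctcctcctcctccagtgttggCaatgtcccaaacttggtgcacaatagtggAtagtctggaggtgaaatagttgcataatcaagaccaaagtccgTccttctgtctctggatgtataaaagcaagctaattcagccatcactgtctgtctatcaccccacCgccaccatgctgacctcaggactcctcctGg
The windows shared 294 of 301 alignment columns (97.7%), with 5 mismatches and 2 gap columns. Cyp2a5 measured 913, 1024, 1881 and 1500 CPM in floxed males and 1094, 1029, 1068 and 1358 CPM in LKO males, which overlapped. Floxed females had 1989, 2091, 1300 and 906 CPM and LKO females 104, 123, 366 and 42.9 CPM, all below the lowest floxed female. The female effect was -3.30 and the male effect -0.23 (adjusted p = 0.944), with a difference of -3.08 (SE 0.65, adjusted p = 0.0152) that was not called without male floxed 1 and 2 (adjusted p = 0.0852). Of the other members of the subfamily, Cyp2a22 fell in females from between 185 and 381 CPM to between 17.9 and 46.0 CPM, and its effects differed by -3.03 (SE 0.42, adjusted p = 0.00277). How Cyp2a4 and Cyp2a5 differed in males was not tested, and the division of reads between such near copies is uncertain.

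A search of the 4 promoter windows printed here for 5 motifs on both strands found 1 of them. The motifs were the E-box CACGTG, the sterol response element TCACNCCAC, the STAT site TTCNNNGAA, the C/EBP site TTGCNNCAA and the kappa-B site GGGANTTTC. The match TCACCCCAC begins at base 261 of the Cyp2a4 window and base 260 of the Cyp2a5 window. That motif stood in 1.24% of 32851 promoters, the E-box in 7.15%, the STAT site in 8.3%, the C/EBP site in 2.08% and the kappa-B site in 1.11%. These matches describe letters and not binding.

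At a looser mark, an unadjusted p under 0.05 in each sex, 173 of the 713 genes had opposite effects. Of these, 100 were up in males and down in females and 73 the other way. A called difference favours such pairs, and their count over all genes tested was not taken. Enzymes that turn sugar into fat stood among the 100. Of 22 genes of fatty acid synthesis tested, the effects differed for 10, all lower in females than in males, where 4.42% of all genes were called. The median difference was -0.91, from a female median of -0.51 and a male median of 0.41, beside 0.01 over all genes. In females 9 of the 22 fell and none rose, and in males 1 rose. Without any 1 library or with male floxed 1 and 2 left out, the count stayed within 1.5 times of 10.

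Fasn, the synthase that assembles palmitate, measured 157, 171, 131 and 150 CPM in floxed males and 272, 292, 227 and 277 CPM in LKO males. Floxed females fell apart into a pair at 347 and 390 CPM (floxed 1 and 4) and a pair at 171 and 181 CPM (floxed 2 and 3), all above the LKO females at 67.8, 113, 132 and 86.6 CPM. The groups did not overlap in either sex. The female effect of -1.45 was called and the male effect of 0.81 was not (adjusted p = 0.205), and they differed by -2.26 (SE 0.34, adjusted p = 0.0039).

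Me1, the malic enzyme that yields NADPH for lipid synthesis, was the member called in males. It measured 160, 132, 162 and 161 CPM in floxed and 234, 214, 234 and 244 CPM in LKO males, and its female effect of -0.31 was not called. Tkt, the transketolase of the pentose phosphate pathway, another source of NADPH, measured 159, 158, 158 and 161 CPM in floxed and 200, 187, 188 and 220 CPM in LKO males, and 120, 102, 101 and 106 CPM in floxed and 67.1, 72.1, 81.9 and 66.9 CPM in LKO females. No libraries overlapped between genotypes in either sex for Tkt, with a female effect of -0.58 that was called, a male effect of 0.32 that was not (adjusted p = 0.0887), and a difference of -0.90 (SE 0.11, adjusted p = 0.00116).

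Srebf1, the transcription factor of this pathway, showed the female side alone. It measured 165, 253, 190 and 189 CPM in floxed and 269, 244, 219 and 265 CPM in LKO males, which overlapped. Floxed females had 209, 195, 139 and 149 CPM and LKO females 59.6, 72.9, 67.0 and 31.7 CPM. Its effects differed by -1.90 (SE 0.29, adjusted p = 0.0039). Acly, which makes cytosolic acetyl-CoA from citrate, differed by -1.28, Mid1ip1, an activator of acetyl-CoA carboxylase, by -2.11, and Thrsp, a lipogenic nuclear protein, by -3.49 (adjusted p between 0.00475 and 0.0136). Scd1, the stearoyl-CoA desaturase, had a difference of -1.18 that was not called, and Mlxipl, which encodes ChREBP, -0.21.

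Adipocyte markers are given beside these genes. Of 7 such markers in both count tables, 4 could be tested. In males edgeR called none of the 4, and all 4 were higher in LKO livers at an unadjusted p under 0.05. The difference was called by edgeR for none and by DESeq2 for 1, and 2 were lower at an unadjusted p under 0.05. Their summed level ran from 47.4 to 77.2 CPM in floxed and from 128 to 153 CPM in LKO males, and from 22.6 to 32.1 CPM in floxed and 19.6 to 24.5 CPM in LKO females. Cidea and Cfd made up most of the male sum, while the defining markers Adipoq and Plin1 held 4 and 3 counts over all floxed males and 1 and 5 counts over all LKO males. Over all floxed females Adipoq and Plin1 held 71 and 48 counts, with up to 61 and 35 in a single library. Over all LKO females they held 15 and 3 counts. The part of these adipocyte markers in the result was not tested.

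Genes of glycolysis and glycogen followed the same direction in smaller number. The effects of 4 of 16 differed, all lower in females, with a median difference of -0.45. Beside Pklr these were Gbe1, the glycogen branching enzyme (-0.76, SE 0.10, adjusted p = 0.00235), Ugp2, which makes UDP-glucose (-0.73, SE 0.14, adjusted p = 0.0104), and Pygl, the liver glycogen phosphorylase (-0.75, SE 0.21, adjusted p = 0.0488). Gbe1 measured 157, 164, 170 and 146 CPM in floxed males, 175, 211, 181 and 202 CPM in LKO males, 107, 106, 99.5 and 111 CPM in floxed females and 69.5, 77.3, 78.6 and 76.5 CPM in LKO females, apart in both sexes. Pygl lost its call without any 1 of 14 libraries, all but female floxed 4 and female LKO 7 (adjusted p up to 0.0874), and also without male floxed 1 and 2 (0.121) and with a block for the replicate number (0.0532). Without female LKO 7 the list had 8 genes lower and 1 higher.

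**Figure D3:**
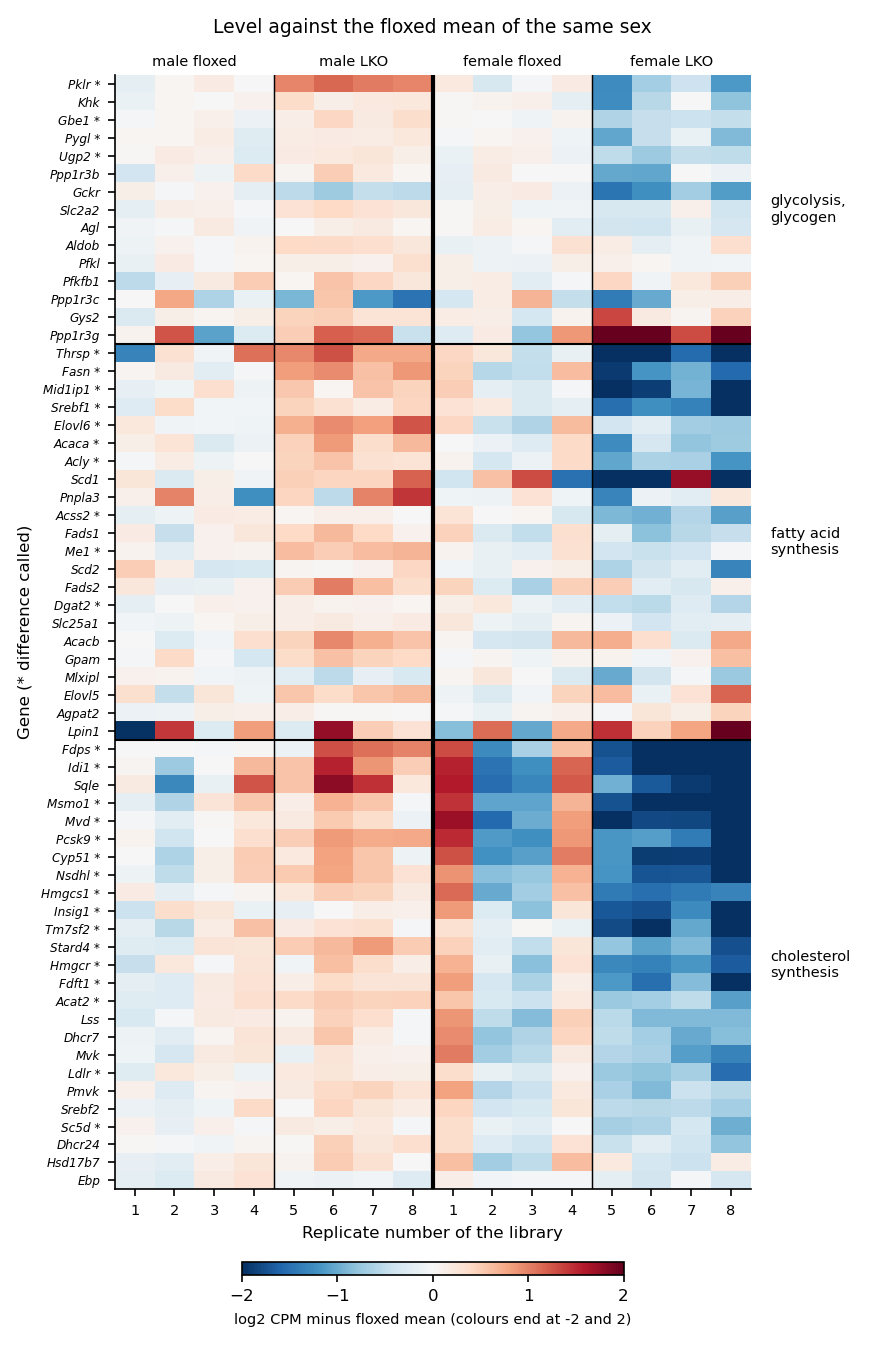
Level of genes of 3 lists in each of the 16 libraries (columns, by replicate number), as log2 CPM minus the mean of the floxed libraries of the same sex; red is higher, blue lower, and an asterisk marks genes whose effects differed. Fatty acid synthesis genes are mostly red in LKO males and blue in LKO females, and among the cholesterol genes floxed females 1 and 4 are red and floxed females 2 and 3 blue.

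Cholesterol synthesis showed a broad difference, carried by the females. The effects differed for 16 of 25 genes, all lower in females, and all 25 fitted differences were negative, with a median of -1.71. In females 23 of 25 fell and none rose. In males edgeR called none, 2 rose at an unadjusted p under 0.05, and the median effect was 0.25. Floxed females lay above floxed males for 17 of the 25 genes and below for none, where 11.3% of all genes were called above and 11.6% below. LKO females lay above LKO males for none and below for 12, where 21.2% of all genes were called above and 20.8% below.

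Tm7sf2, a sterol reductase late in the pathway, measured 77.3, 55.1, 63.8 and 57.2 CPM in floxed and 18.2, 13.3, 30.8 and 15.4 CPM in LKO females. In males it measured 44.2, 33.9, 55.0 and 74.7 CPM in floxed and 56.0, 60.6, 62.5 and 49.1 CPM in LKO livers. The LKO females lay below all other libraries, with a difference of effects of -1.84 (SE 0.34, adjusted p = 0.01). Stard4, a carrier of cholesterol inside the cell, differed by -1.73 (SE 0.30, adjusted p = 0.00743).

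Idi1, the isomerase of isoprenoid units, had 69.6 and 53.4 CPM in floxed females 1 and 4 but 8.53 and 10.2 CPM in floxed females 2 and 3, against 7.48, 5.64, 5.04 and 3.02 CPM in LKO females. Floxed males had 7.41, 4.31, 7.20 and 11.2 CPM and LKO males 10.6, 20.9, 13.3 and 10.04 CPM. Floxed females 2 and 3 therefore lay within the range of the males, and the difference of -3.60 (SE 0.79, adjusted p = 0.0175) was not called without male floxed 1 and 2 (adjusted p = 0.0904). Fdps (-3.70, SE 0.68, adjusted p = 0.00991) and Nsdhl (-2.36, SE 0.48, adjusted p = 0.0141), of the same pathway, had floxed females divided in the same way, at 8.85 and 5.42 against 1.43 and 2.24 CPM for Fdps. Nsdhl was not called without male floxed 1 and 2 (adjusted p = 0.069). Without the 4 libraries named at the outset neither Idi1 (0.0844) nor Nsdhl (0.0647) was called, and limma-voom did not call Idi1 (0.0892). The list had 3 calls without male floxed 1 and 2, 9 without the 4 libraries and 15 without female floxed 4 and LKO 7.

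The acute-phase proteins, secreted by hepatocytes in inflammation, were the pathway list with the largest share of members called (69.2%). The effects of 18 of 26 differed, all higher in females, with a median difference of 1.40 from a female median of 1.23 and a male median of -0.07. In females 22 rose and none fell. In males edgeR called none, and at an unadjusted p under 0.05 there were 0 as well. Floxed females lay above floxed males for 16 of the 26, beside 11.3% of all genes, and LKO females above LKO males for 24, beside 21.2%. The count lay between 13 and 23 over the omissions of the 2 pairs of libraries named above.

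The serum amyloid A genes Saa1 and Saa2 lie side by side on chromosome 7 in opposite orientation and led the list by size. Their promoters are printed because both transcripts rose together in females. The windows lie at chr7:46742931-46743230 on the minus strand and chr7:46751583-46751882 on the plus strand of GRCm38.p6, from RefSeq, with capitals for the bases that differ.
Saa1: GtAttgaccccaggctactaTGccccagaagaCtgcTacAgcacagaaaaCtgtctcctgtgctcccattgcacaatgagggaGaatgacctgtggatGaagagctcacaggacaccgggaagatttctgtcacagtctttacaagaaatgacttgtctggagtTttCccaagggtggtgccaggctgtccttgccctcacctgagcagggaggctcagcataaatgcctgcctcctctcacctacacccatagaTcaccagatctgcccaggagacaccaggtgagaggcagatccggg
Saa2: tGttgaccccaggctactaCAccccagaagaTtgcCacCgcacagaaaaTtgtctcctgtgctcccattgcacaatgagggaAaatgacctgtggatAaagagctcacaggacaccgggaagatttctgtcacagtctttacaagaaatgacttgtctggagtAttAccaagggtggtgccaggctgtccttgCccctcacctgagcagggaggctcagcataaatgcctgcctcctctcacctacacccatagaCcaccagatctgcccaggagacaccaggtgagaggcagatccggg
They shared 287 of 301 alignment columns (95.3%), with 12 mismatches and 2 gap columns. Saa2 measured 137, 56.3, 93.3 and 182 CPM in floxed males and 122, 139, 92.7 and 127 CPM in LKO males. Floxed females had 223, 120, 414 and 637 CPM and LKO females 7553, 18431, 6281 and 4655 CPM. The males overlapped and the LKO females lay above every other library, with effects of 0.03 and 4.73 that differed by 4.69 (SE 0.70, adjusted p = 0.00388). Saa1 differed by 3.96 (SE 0.62, adjusted p = 0.00407), from 480, 342, 897 and 1369 CPM in floxed to 10183, 21196, 7365 and 7319 CPM in LKO females. The division of reads between the 2 genes is uncertain.

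Itih3, a hyaluronan-binding plasma protein, had the smallest p of the list. It measured 740, 658, 670 and 920 CPM in floxed males, 546, 698, 536 and 618 CPM in LKO males, 1343, 1311, 1600 and 2082 CPM in floxed females and 3932, 4362, 3324 and 3174 CPM in LKO females. The males overlapped and the females did not, and the effects of -0.32 and 1.22 differed by 1.54 (SE 0.22, adjusted p = 0.0031). The fibrinogen chains Fga and Fgb differed by 1.48 and 1.32 (adjusted p = 0.0039 for each). Of members that did not differ by a called amount, Saa4 had a difference of 0.64 and Cfb, complement factor B, 0.25.

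**Figure D4:**
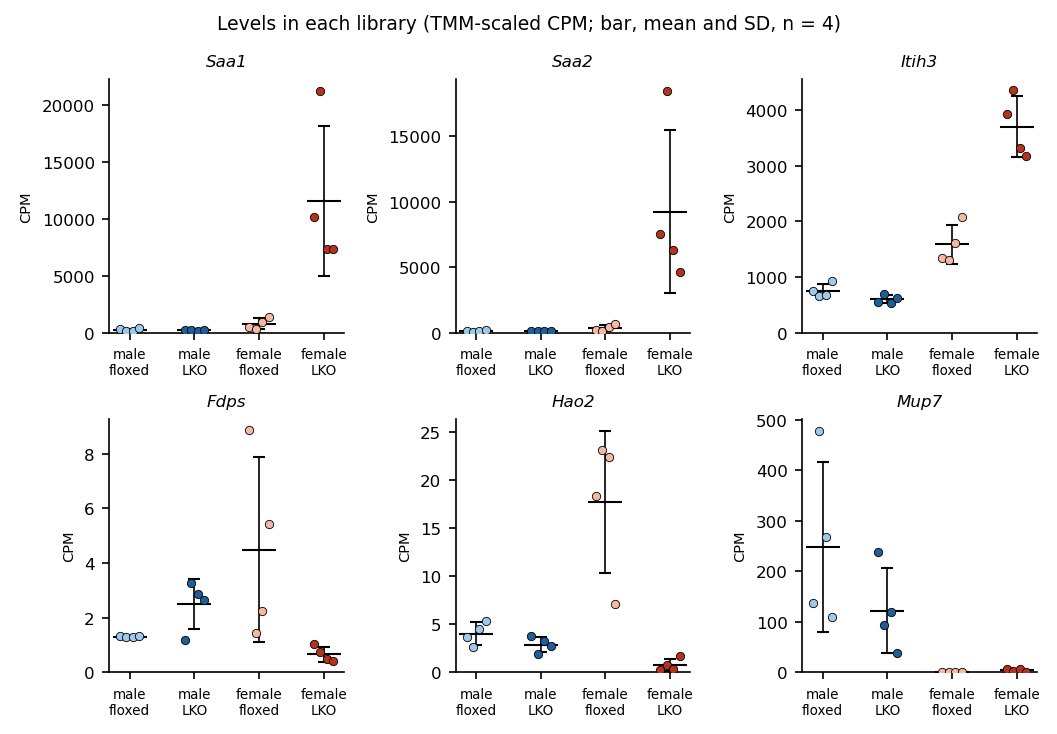
CPM (vertical axes, from 0) in the 4 groups for Saa1, Saa2, Itih3, Fdps, Hao2 and Mup7; points are libraries, bars the mean and SD (n = 4). LKO females lie above all other libraries for Saa1, Saa2 and Itih3 and below the other groups for Hao2, Mup7 is near 0 in floxed females, and floxed females divide for Fdps.

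Interleukin-6 and STAT3 signalling, the pathway that drives these genes, had 2 of 18 members with different effects, both higher in females. Socs3, its feedback inhibitor, measured 12.8, 8.56, 15.7 and 9.34 CPM in floxed males, 7.70, 7.01, 6.34 and 9.95 CPM in LKO males, 29.9, 29.2, 26.3 and 25.3 CPM in floxed females and 64.3, 87.0, 52.4 and 49.2 CPM in LKO females. The LKO females did not overlap the floxed females, and the difference was 1.77 (SE 0.28, adjusted p = 0.00475). Lepr, the leptin receptor, rose in females from 11.9, 10.6, 6.26 and 35.2 to 380, 115, 85.4 and 287 CPM, with a difference of 3.02 (SE 0.75, adjusted p = 0.0323). Lepr lost its call without any 1 of 9 libraries (male floxed 1 or 2, male LKO 5, 7 or 8, female floxed 1 or 2, female LKO 5 or 8; adjusted p up to 0.0694), and the list then had 1 call. It was also not called with limma-voom (0.0968), voom with group weights (0.0689), robust dispersion (0.0654) or without male floxed 1 and 2 (0.163). The list had 5 calls without female LKO 7. Osmr, the oncostatin M receptor, at 1.17 (adjusted p = 0.0617), and Stat3, at 0.45, were not called.

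Neutrophil markers varied beside the acute-phase genes. Neither edgeR nor DESeq2 called the difference for any of 10 tested, 0 had an unadjusted p under 0.05, and the median was 1.03. Their summed level was 17.0, 13.0, 17.1 and 97.5 CPM in floxed females 1 to 4 and 90.3, 130, 57.3 and 29.5 CPM in LKO females 5 to 8, and it ran from 6.07 to 11.6 CPM in all males. LKO female 8 lay below floxed female 4, so the groups overlapped, and Ly6g was at 0 counts in 3 of 4 floxed females. Without female floxed 4, 3 of the markers were called higher, and without female floxed 4 and LKO 7, 5 were. Kupffer cell and macrophage markers had none of 13 called by edgeR or DESeq2 and 0 at an unadjusted p under 0.05, with sums from 881 to 1333 CPM in floxed and from 993 to 1527 CPM in LKO females. Their part in the result was not tested.

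Genes of the unfolded protein and integrated stress responses, which relieve and report an overloaded endoplasmic reticulum, had 6 of 28 members with different effects, all higher in females. All 28 fitted differences were positive, with a median of 0.59. In females 13 rose. In males edgeR called none, with 1 higher and 3 lower at an unadjusted p under 0.05. Sdf2l1, an endoplasmic reticulum chaperone cofactor, measured 7.03, 5.27, 10.6 and 12.9 CPM in floxed and 24.9, 27.4, 17.6 and 27.5 CPM in LKO females, and 11.2, 27.3, 12.1 and 9.62 CPM in floxed and 10.9, 9.49, 12.1 and 9.07 CPM in LKO males. Floxed male 2 stood apart from the other males, and the difference was 1.98 (SE 0.43, adjusted p = 0.017). Manf, a secreted stress protein (1.25, SE 0.26, adjusted p = 0.0152), Xbp1, a transcription factor of the response (0.59, SE 0.12, adjusted p = 0.0149), and Dnajb11, a co-chaperone (0.74, SE 0.17, adjusted p = 0.0205), also differed. Atf4, the transcription factor of the integrated stress response, had a difference of 0.27 that was not called. The count fell to 3 without female floxed 1 or without male floxed 1 and 2 and rose to 11 without female LKO 7, and Dnajb11 was not called without female floxed 1 (adjusted p = 0.0503). Dnajb11 was also not called without male floxed 1 and 2 (0.0598). With a block for the replicate number the list had 2 calls, and Xbp1 (adjusted p = 0.0517), Sdf2l1 (0.0737) and Dnajb11 (0.0549) were not called.

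Among 14 genes of gluconeogenesis and insulin repression the effects of 2 differed, both higher in females. Igfbp1, a binding protein of insulin-like growth factors that insulin represses, measured 57.3, 69.1, 87.7 and 105 CPM in floxed and 753, 492, 195 and 1694 CPM in LKO females. In males it measured 34.1, 72.8, 20.2 and 53.5 CPM in floxed and 32.0, 82.0, 48.7 and 44.5 CPM in LKO livers. The female groups did not overlap and the male groups did, and the effects differed by 3.10 (SE 0.72, adjusted p = 0.0226). Got1, the cytosolic aspartate aminotransferase, differed by 1.25 (SE 0.31, adjusted p = 0.0304). Pck1, the rate-limiting enzyme of gluconeogenesis, had 0.65 and G6pc, the glucose-6-phosphatase, 0.10, neither called. Igfbp1 was not called without male LKO 5, 7 or 8 or female floxed 1 (adjusted p up to 0.0542) or without male floxed 1 and 2 (0.0871), and with those omissions, or with a block for the replicate number (0.081), the list had no call. With robust dispersion Igfbp1 was not called (0.0505). Got1 was not called with the block (0.0918), without any of these libraries, nor without male floxed 1 or 4, female floxed 2 or female LKO 5 or 8 (adjusted p up to 0.0702).

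Of 16 circadian clock genes the effects of 4 differed, 2 in each direction, with a median difference of -0.64. Hlf, a clock-controlled PAR bZIP factor, measured 83.7, 111, 80.2 and 79.5 CPM in floxed and 46.9, 46.5, 68.8 and 54.3 CPM in LKO females, with a male effect of 0.10, and the effects differed by -0.81 (SE 0.19, adjusted p = 0.0228). Per2, a repressor of the clock, differed by -1.42 (adjusted p = 0.0351), Nfil3, a repressor that opposes Hlf and its relatives, by 1.43 (adjusted p = 0.0346) and Clock by 0.88 (adjusted p = 0.0488). Arntl, the partner of Clock, had 2.23 and Npas2 2.40, neither called. These calls were fragile. Without male floxed 1 and 2 the list had no call, Hlf was not called without female LKO 5 (adjusted p = 0.0521), and Per2, Nfil3 and Clock were all not called without male floxed 2, male LKO 5, 7 or 8, female floxed 1 or 2 or female LKO 6. Per2 was lost also without male LKO 6, Nfil3 without male floxed 1 or 3 or female floxed 3, and Clock without male floxed 1 or 4, male LKO 6, female floxed 4 or female LKO 8 (adjusted p up to 0.0772, 0.0728 and 0.097). With robust dispersion Per2 (0.0607), Nfil3 (0.0555) and Clock (0.0579) were not called. With the replicate block Per2 (0.0682) and Clock (0.0922) were not called, and with limma-voom Nfil3 (0.073) was not. Clock was also not called with library totals (0.0736), with no filter (0.0573) or without the 4 libraries (0.152). Without female LKO 7 the list had 8 calls. The time of day at which each mouse was taken was not analysed here.

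Sex-biased liver genes were tested because they already differ between the sexes. Floxed females lay above floxed males for 22 of 23 female-biased genes tested, where the background was 3698 genes called (22.9%), 1826 higher (11.3%) and 1872 lower (11.6%) in females. That split moved to 2237 and 1483 with upper quartile scaling and to 2460 and 1217 with library totals. Between LKO females and LKO males 6777 genes were called (42%), 3417 higher (21.2%) and 3360 lower (20.8%), and 17 of the 23 lay higher and 1 lower in females. The deletion lowered 16 of the 23 in females and raised 2, and it raised 1 in males, Cyp2a4. The effects differed for 4, all lower in females, with a median difference of -1.06.

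Hao2, a peroxisomal hydroxyacid oxidase, was among these 4. It measured 18.4, 23.1, 22.4 and 7.12 CPM in floxed and 0.278, 0.765, 0.328 and 1.71 CPM in LKO females, and 3.63, 2.62, 4.53 and 5.38 CPM in floxed and 3.78, 1.90, 3.22 and 2.69 CPM in LKO males. LKO females lay below every other library including the males, with a difference of -4.04 (SE 0.62, adjusted p = 0.0039). Floxed females lay 2.14 log2 units above floxed males, and LKO females 1.91 below LKO males. Abcd2, a peroxisomal importer of very long fatty acids, differed by -1.16 (SE 0.24, adjusted p = 0.0144) and Acot3, a peroxisomal thioesterase, by -3.01 (SE 0.65, adjusted p = 0.0165, and 0.0504 without male floxed 1 and 2). The sulfotransferases Sult2a1, Sult2a2 and Sult2a3 fell in females (-5.02, -5.01 and -6.16), and their differences of -6.26, -4.97 and -6.13 were not called.

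Male-biased genes leaned the other way. Floxed females lay below floxed males for 23 of 25 and LKO females below LKO males for 20, above for 1. The effects of 6 differed, 5 higher and 1 lower in females, with a median difference of 0.92. Mup7, a major urinary protein, measured 137, 478, 268 and 110 CPM in floxed and 238, 93.6, 119 and 38.6 CPM in LKO males, and 0.185, 0.408, 0.156 and 0.277 CPM in floxed and 6.33, 3.03, 6.97 and 0.794 CPM in LKO females. The female groups did not overlap, yet the LKO females stayed far below the males, and the effects of 4.03 and -1.02 differed by 5.05 (SE 1.08, adjusted p = 0.016). It was not called with limma-voom (adjusted p = 0.217), voom with group weights (0.299) or without the 4 libraries named at the outset (0.0522).

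Slco1a1, an organic anion transporter of male liver, measured 31.0, 107, 81.1 and 29.1 CPM in floxed and 44.6, 47.0, 36.9 and 17.3 CPM in LKO males, against 1.30, 2.42, 0.966 and 0.74 CPM in floxed and 11.1, 2.58, 8.61 and 5.83 CPM in LKO females, a difference of 3.13 (SE 0.72, adjusted p = 0.0225). Serpina1e, an alpha-1 antitrypsin paralog, differed by 3.46 (SE 0.79, adjusted p = 0.0218), with a called rise in females of 1.92 and a male effect of -1.54 that was not called. Its LKO and floxed libraries overlapped in females and did not overlap in males. Slco1a1 was not called without female floxed 1 or female LKO 5 (adjusted p up to 0.0532) and Serpina1e not without male LKO 7 or 8 (up to 0.0515). Slco1a1 was also not called with limma-voom (0.137), voom with group weights (0.173), robust dispersion (0.0504), without male floxed 1 and 2 (0.0538) or without the 4 libraries named at the outset (0.0544). Serpina1e was also not called without male floxed 1 and 2 (0.0664). The list had 2 higher and none lower without male floxed 1 and 2, and 3 higher and none lower without male LKO 7, male LKO 8, female floxed 1 or female LKO 5. Reads of Mup and Serpina1 genes can be shared with close paralogs.

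Among 13 genes of growth hormone signalling and STAT5, which set these biases, neither edgeR nor DESeq2 called a difference, and 1 was lower at an unadjusted p under 0.05. Without female LKO 7, 1 was called lower. Over all genes 3299 had an unadjusted p under 0.05 for the difference, and DESeq2 called 1358.

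Genes controlled by the xenobiotic receptors CAR and PXR had 8 of 23 members with different effects, all lower in females, with a median difference of -0.88. Ces2e, a carboxylesterase, measured 154, 156, 161 and 126 CPM in floxed and 63.6, 68.4, 82.6 and 80.9 CPM in LKO females, while males ran from 274 to 345 CPM in floxed and from 294 to 307 CPM in LKO livers. Females fell without overlap and the LKO males lay within the range of the floxed males, with a difference of -0.97 (SE 0.14, adjusted p = 0.00277). The efflux pump genes Abcb1a and Abcc3 differed by -1.41 (adjusted p = 0.0123) and -0.88 (adjusted p = 0.0145), the latter not called without male floxed 1 and 2 (0.0624). Nr1i3, which encodes CAR, had -0.91 (adjusted p = 0.0496) and Nr1i2, which encodes PXR, 0.04, which was not called. The count was 4 without male floxed 1 and 2, 14 without the 4 libraries named above, and 5 without any 1 of male LKO 5 or 8, female floxed 1, 2 or 3, or female LKO 6 or 8.

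Markers of sinusoidal endothelial cells, the fenestrated lining of the liver capillaries, which do not express albumin, were lower in LKO females. The effects of 6 of 12 differed, all lower in females, with a median difference of -0.84, and 7 fell in females. In males edgeR called none, with 1 higher at an unadjusted p under 0.05. Oit3 measured 14.3, 15.1, 14.02 and 15.8 CPM in floxed and 7.69, 5.48, 9.74 and 6.69 CPM in LKO females, and 18.9, 19.2, 12.7 and 16.6 CPM in floxed and 18.2, 20.2, 19.2 and 23.1 CPM in LKO males. All LKO females lay below every other library, and the difference was -1.26 (SE 0.21, adjusted p = 0.00645). Fcgr2b, a scavenging receptor for immune complexes, differed by -1.15, the receptor gene Gpr182 by -0.98 and Kdr, the receptor for VEGF, by -1.08 (adjusted p between 0.0116 and 0.0208). Stab2, a hyaluronan receptor of these cells, had 0.03 and Cdh5, the endothelial cadherin, -0.13, neither called. The summed level of the 12 ran from 319 to 340 CPM in floxed and from 222 to 294 CPM in LKO females, and from 257 to 358 CPM in floxed and from 338 to 384 CPM in LKO males. The count was 10 without the 4 libraries named above.

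Hepatocyte markers had 1 of 9 members with a higher and 1 with a lower female effect. At an unadjusted p under 0.05 the difference was higher for 4 and lower for 2. The summed level of the 9 ran from 60187.5 to 68754.8 CPM in floxed and from 35799.4 to 53229.1 CPM in LKO females, without overlap. In males it ran from 65089.6 to 82496.0 CPM in floxed and from 70677.3 to 80742.5 CPM in LKO livers. Hnf4a, the nuclear receptor of hepatocyte identity, rose in females (542 ± 70.6 and 478 ± 27.3 CPM in floxed and LKO males, 588 ± 59.4 and 845 ± 85.1 CPM in floxed and LKO females), and Alb fell in females with a difference of -0.92 (adjusted p = 0.039). Without male floxed 1 and 2 neither was called, and Alb was the call lost without any 1 of male floxed 1 or 2, male LKO 5 to 8, female floxed 1 or 2 or female LKO 5. Among stellate cell markers 1 of 12 differed (8.33%, beside 4.42% of all genes tested): Lrat, which stores retinol as esters (-0.78, adjusted p = 0.0457). Markers of cholangiocytes, lymphocytes, erythroid, acinar and dividing cells had no call in edgeR. At an unadjusted p under 0.05, 1 cholangiocyte and 2 dividing cell markers were lower, and DESeq2 called 1 cholangiocyte marker. Lymphocyte markers summed to 112 CPM in male LKO 5, against 12.1 to 22.3 CPM in the other males.

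For 74 of the 713 genes the male effect was the larger. Pls1, a plastin that bundles actin in epithelial cells, measured 0.63, 0.677, 1.24 and 0.823 CPM in floxed and 2.82, 4.99, 3.71 and 6.54 CPM in LKO males, and 1.39, 1.46, 0.966 and 1.88 CPM in floxed and 1.88, 1.37, 1.49 and 1.53 CPM in LKO females. Males separated and females overlapped, with effects of 2.42 (adjusted p = 0.000294) and 0.14 and a difference of -2.28 (SE 0.39, adjusted p = 0.0072). Cavin2, a coat protein of caveolae, measured 9.76, 10.99, 6.87 and 10.6 CPM in floxed and 16.7, 19.2, 18.5 and 20.1 CPM in LKO males, and 17.3, 16.4, 12.7 and 14.9 CPM in floxed and 12.5, 11.7, 15.8 and 11.1 CPM in LKO females. LKO males reached the level of floxed females, and the effects of 0.96 (adjusted p = 0.0029) and -0.26 differed by -1.23 (SE 0.20, adjusted p = 0.00575).

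Lmnb2, which encodes lamin B2 of the nuclear lamina, had small effects with tight replicates: 13.3 ± 0.972 and 16.3 ± 0.77 CPM in floxed and LKO males and 12.6 ± 0.533 and 10.6 ± 0.267 CPM in floxed and LKO females (SD, n = 4 each). Its difference was -0.54 (SE 0.10, adjusted p = 0.00858). Avpr1a, the vasopressin receptor of hepatocytes, went the opposite way, with 6.96 ± 1.70 and 4.33 ± 0.445 CPM in males and 20.3 ± 2.39 and 27.9 ± 3.87 CPM in females (SD, n = 4 each) and a difference of 1.15 (SE 0.21, adjusted p = 0.01). Neither male effect was called (adjusted p = 0.0673 and 0.0629).

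Outside the lists, 4 more of the genes with the smallest p are given. Sorbs3, which encodes the cytoskeletal adaptor vinexin, measured 33.7, 30.3, 30.9 and 31.7 CPM in floxed and 25.0, 26.6, 27.9 and 22.7 CPM in LKO males, and 53.3, 57.7, 58.8 and 56.9 CPM in floxed and 86.8, 77.2, 78.4 and 82.4 CPM in LKO females. The groups did not overlap in either sex, the male effect of -0.31 narrowly missed (adjusted p = 0.0518), and the difference was 0.83 (SE 0.10, adjusted p = 0.000777). Ctsl, the lysosomal protease cathepsin L, rose in females from between 465 and 559 CPM to between 792 and 930 CPM, with a difference of 0.86 (SE 0.12, adjusted p = 0.00235). Ces1g, a carboxylesterase, fell in females from between 205 and 338 CPM to between 84.5 and 127 CPM, with a difference of -1.62 (SE 0.21, adjusted p = 0.00214). Ltbp4, which binds latent TGF-beta, fell in females from between 27.1 and 39.9 CPM to between 12.7 and 17.1 CPM, with a difference of -1.26 (SE 0.17, adjusted p = 0.00235). Their male effects ran from -0.16 to 0.16 for these 3, and none was called.

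Other genes with large differences had a female effect larger in size than the male effect. Car3, a carbonic anhydrase abundant in liver and fat, measured 1570, 1577, 1379 and 554 CPM in floxed and 38.0, 77.4, 252 and 83.2 CPM in LKO females, beside 3015 to 3617 CPM in floxed and 3114 to 4175 CPM in LKO males. All LKO females lay below all floxed females, which the choice of Car3 required. The males overlapped, and the difference was -3.65 (SE 0.60, adjusted p = 0.00592). Car1, another carbonic anhydrase, differed by -3.16 (SE 0.61), and its LKO females lay near the floor (0 to 0.447 CPM, against 1.33 to 3.41 CPM in floxed). Car1 was lower in LKO males as well, without overlap (6.07 to 6.49 CPM in floxed, 3.06 to 3.75 CPM in LKO), with an effect of -0.93 that was not called. Mup-ps10, a pseudogene of the urinary proteins, differed by -6.47 (SE 0.93, adjusted p = 0.0031), with 2 LKO females at 0. In the other direction, Scara5, a ferritin receptor, measured 0.0308, 0.204, 0.156 and 0.832 CPM in floxed and 7.42, 3.54, 2.71 and 3.48 CPM in LKO females, which brought LKO females into the range of the males (2.47 to 11.1 CPM), with a difference of 4.48 (SE 0.88, adjusted p = 0.0123).

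Igdcc4 rose in females from 0.278, 0.611, 0.312 and 1.57 to 22.6, 11.6, 4.20 and 7.91 CPM, with a difference of 3.68 (SE 0.84, adjusted p = 0.0216). Syt12, a synaptotagmin, differed by 3.11 (SE 0.61), Mup11 by 3.53 (SE 0.72) and Crybb3, a crystallin gene, by 3.22 (SE 0.75), with adjusted p between 0.0125 and 0.0234. Syt12 (adjusted p = 0.081), Igdcc4 (0.0533) and Crybb3 (0.0904) were not called without male floxed 1 and 2. Igdcc4 was also not called without male floxed 4 (0.0521), and Crybb3 not without male floxed 1 or female floxed 1 (up to 0.0569). With limma-voom and with group weights neither Igdcc4 (adjusted p up to 0.122) nor Crybb3 (up to 0.144) was called. Crybb3 was also not called with a block for the replicate number (0.0705) or without the 4 libraries named at the outset (0.0514). Predicted or clone-named models made up 50 of the 713 genes.

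Several lists held few calls or none. None of 20 genes of fatty acid oxidation and ketogenesis and none of 13 genes of the mitochondrial genome differed in edgeR, while DESeq2 called 3 and 1, all lower in females. At an unadjusted p under 0.05 there were 1 higher and 6 lower in the first list and 3 lower in the second. Among 17 lipid droplet genes Fitm1, which aids droplet formation, was called (-1.50, adjusted p = 0.0344), among 15 bile acid genes Akr1d1, a steroid reductase of bile acid synthesis (-1.30, adjusted p = 0.0485), among 12 negative acute-phase genes Alb, and among 20 genes for matrin-3 itself and its RNA-binding partners Elavl1, which encodes HuR (0.38, adjusted p = 0.0457). In that order the calls made up 5.88%, 6.67%, 8.33% and 5% of their lists, beside 4.42% of all genes tested. These calls rested on single libraries. The lipid droplet list kept a call only when the library left out was male floxed 4, male LKO 6 or female floxed 4, LKO 7 or LKO 8. The bile acid list kept one only without male floxed 3, female floxed 4 or female LKO 7, and the RNA-binding list only without male or female floxed 2, female floxed 4 or female LKO 7. The stellate list kept one only without male floxed 1 or 2, male LKO 5, female floxed 4 or female LKO 6, 7 or 8. The negative acute-phase list kept one only without male floxed 3 or 4, female floxed 3 or 4 or female LKO 6, 7 or 8.

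**Figure D5:**
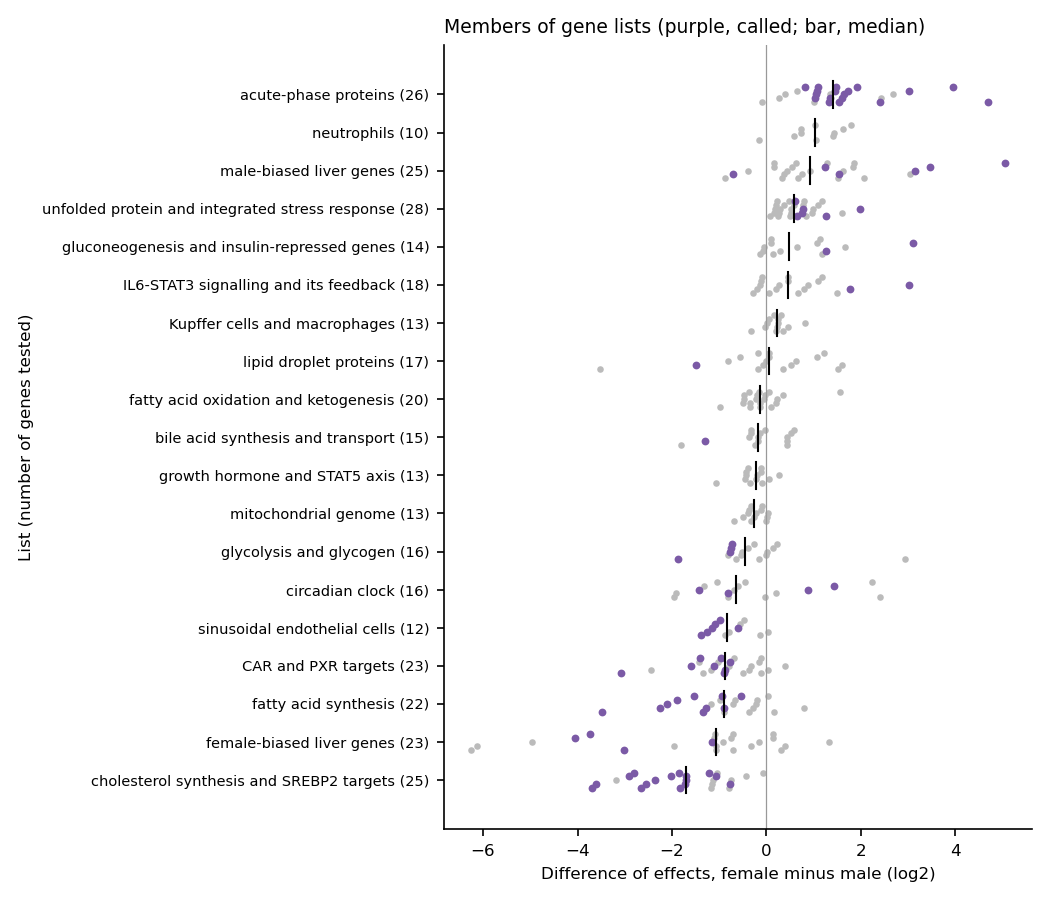
Difference of effects, female minus male (horizontal axis, log2), for the members of 19 lists, ordered by median; purple points are genes whose effects differed, grey points those not called, and black bars the median of the list. Of the 19 lists shown, cholesterol synthesis lies lowest with a median of -1.71 and acute-phase proteins highest with 1.40. The 4 adipocyte markers tested, with a median of -2.05, are not plotted.

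For 57 genes the effect was called in each sex with the same sign and the difference was not called, Dcaf8 and Matr3 among them. Of the genes whose effects differed, 1 was called with the same sign in each sex, a predicted model.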

How the data were processed

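Per the labels, livers of 16 mice were sequenced as directional poly(A) libraries. For each sex the authors deposited 1 table of whole-number read counts per gene, made on mm10 per the submitters' processing notes. The aligner, counter, annotation and strand setting are not given in the sources used here. Library totals were 30495505 to 36496193 counts. Tables were joined on identifiers found in both. Gene names came from the GENCODE M21 annotation, and 24 joined identifiers without a symbol held 0.0318% of the counts.

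One edgeR 4.0.16 fit in R 4.3.3 held all 4 groups (minimum count 10, minimum total count 15, TMM scaling, quasi-likelihood F-test, two-sided), so that both sexes shared 1 estimate of spread, and p-values were adjusted over all 16126 genes by Benjamini-Hochberg. Alternatives were limma 3.58.1, DESeq2 1.42.0, other scalings and filters, each sex fitted alone, a replicate block, and libraries left out.

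The genes and lists were chosen with earlier results of these data known. Named genes had a called difference and a log2 CPM averaging 1 or more, predicted models left out: the 10 largest differences in each direction without overlap of libraries, opposite effects, the 8 smallest p with a larger male effect, the 5 smallest p in each direction, and up to 4 members of a described list, with Matr3 and Dcaf8. Values for members outside this rule were picked after they were seen. No 2 libraries agreed within sampling noise (lowest chi-square per degree of freedom 13.7).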

Additional observations from a re-analysis of the deposited data

Results flagged for a closer look

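The effect of the deletion differed between females and males, by the test of the difference itself, for 713 genes. Of these, 5 had opposite effects called in each sex, with differences of -1.23 for Pdk1, -1.88 for Pklr, -1.02 for Sh2d4a, -3.74 for Cyp2a4 and 1.70 for C8b on the log2 scale.

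Single libraries stood apart from the other 3 of their group in 14 of 300 groups, taken over 75 genes, by Dixon's test at the 95% level. Chance flags about 1 in 20 groups. Highest of their groups were Mup-ps10 at 0.298 CPM and Abcd2 at 87.0 CPM in female LKO 7, Syt12 at 4.19 CPM in female floxed 4, Lmnb2 at 13.4 CPM and Hlf at 111 CPM in female floxed 2, Sdf2l1 at 27.3 CPM in male floxed 2, Mid1ip1 at 39.3 CPM in male floxed 3, Scara5 at 9.31 CPM and Ppargc1a at 12.8 CPM in male LKO 6, and Me1 at 132 CPM in female LKO 8. Lowest were Abcc3 at 367 CPM in female floxed 4, Gpr182 at 13.8 CPM in female floxed 3, Ppargc1a at 9.50 CPM in female floxed 1, and Me1 at 132 CPM in male floxed 2.

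Sult3a2, a sulfotransferase gene, stood in the female table alone and so had no difference of effects. It held 3161 counts over the 4 LKO females, at 23.9 ± 2.93 CPM against 7.42 ± 2.78 CPM in floxed females (SD, n = 4 each, scaled by library totals), without overlap.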

How the results depend on the processing

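The 713 differences became 1358 with DESeq2, 468 with a replicate block (404 of them shared), 243 without male floxed 1 and 2, 2030 without female floxed 4 and LKO 7, 1372 without these 4 libraries and 318 at a log2 difference of at least 1, and ran from 407 to 1435 with 1 library left out. Calls in females became 1426 with each sex fitted alone and 652 at a log2 effect of at least 1 (1762 to 3474 with 1 library left out). Calls in males became 235 with DESeq2, 165 with group weights, 157 with each sex fitted alone, 51 without male floxed 1 and 2, 149 without female floxed 4 and LKO 7 and 40 at a log2 effect of at least 1 (47 to 121). The sex difference became 2420 among floxed mice without the 4 libraries and 896 at a log2 value of at least 1 (2874 to 3907), and among LKO mice 1870 at a log2 value of at least 1 (5887 to 6916). The 5 opposite genes became 18 with DESeq2, 9 with group weights, 3 without male floxed 1 and 2, 10 without female floxed 4 and LKO 7, 8 without the 4 libraries and 1 at a log2 effect of at least 1 (3 to 10). Of the 3 without male floxed 1 and 2, only C8b was among the 5. The causes were not tested. Among the named genes only the difference of Dcaf8, which was not called, changed sign over the alternatives run (-0.088 to 0.017). Calls between the sexes among floxed mice, 1826 higher and 1872 lower in females, became 2237 and 1483 with upper quartile scaling and 2460 and 1217 with library totals. Of the 713 genes, 172 were called in every fit and 339 in every fit with 1 library left out. With edgeR, DESeq2 and limma-voom, the last both with and without group weights, 596 were called in each. Replicate numbers do not pair the mice: same-numbered libraries of the sexes had deviations correlated at -0.119 to 0.130, and 2 of 8 correlated best with their own number. Numbers 1 to 4 are floxed and 5 to 8 LKO, so the block could be fitted for the difference alone. Depth limits the genes under the count minimum of 10, which were not tested.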

Other observations

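Some genes of female liver stood in the female table alone and entered no comparison of the sexes. Cyp3a16, a cytochrome P450, went from 150.7 ± 116.3 CPM in floxed females to 15.3 ± 9.99 CPM in LKO females (SD, n = 4 each, scaled by library totals). Cyp3a41b, of the same family, went from 36.5 ± 14.8 to 11.9 ± 5.53 CPM. Reads of these genes can be shared with close paralogs, and the values carry no test.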
